A study of Mus musculus with 12 samples.

Results

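The comparison described here is between 2 populations of type 1 conventional dendritic cells (cDC1) from mice labelled as without Cre: migratory cDC1 of the skin-draining lymph nodes and resident cDC1 of the spleen. It holds the 3 arrays labelled SDLN_Xcr1++ and the 3 labelled SPL_Xcr1++, 6 of the 12 arrays of the series. All 12 come from C57BL/6 mice with Cd40 floxed on both alleles (CD40fl/fl), and these 6 are labelled as from animals with 2 unaltered Xcr1 alleles (Xcr1+/+), that is, without Cre. They are called control arrays below, after their labels. The other 6 arrays, 3 from each tissue, are labelled as from mice in which 1 of the Xcr1 alleles drives Cre, so as to remove Cd40 from cDC1. The mice were naive; no age or sex is used here. Per the labels' protocols, the sorted cells of both tissues were B220-, Sirpa-, XCR1+ and high in MHC class II; splenic cells were CD11c high, and the migratory cells of the lymph node were CD11c intermediate. Tissue, CD11c gate and migratory state therefore change together and cannot be told apart.

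cDC1 take up material from dying cells and present it on MHC class I to CD8 T cells, and they depend on the transcription factors Batf3 and Irf8. Resident cDC1 stay in the spleen or lymph node in which they develop. Migratory cDC1 first sit in a tissue such as the skin, and also without infection some of them mature, gain the chemokine receptor CCR7 and travel through lymph to the draining node, where they present self antigen. This maturation without infection is often called homeostatic.

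RNA was measured as probe set intensity on Affymetrix Mouse Gene 1.0 ST arrays, made with RMA by the authors, and 19938 genes were tested. The median intensity per array was between 66.8 and 74.4. Background was taken as the 95th percentile of 1023 olfactory receptor genes, a family that these cells are not known to use, and came to 56.4 in spleen and 56.2 in lymph node. A group whose mean log2 intensity lay below it is said to be at background. By that measure 59.2% of genes were above background in spleen and 59.9% in lymph node. The first principal component of the 6 control arrays held 81.3% of the variance and separated the tissues. The second held 12.5% and set the replicate 1 array of each tissue apart from the others. Cd40 does not follow the genotype labels on the replicate 3 arrays of the series, where it is higher on those labelled Cre. An exchange of the control and Cre labels of replicate 3 is possible and cannot be settled from these values, so the genotype of those arrays is known from the labels alone. Results that rest on either set of arrays are therefore also given without it where that changes them; this leaves 2 arrays a group, so a call can be lost with its difference little changed. Whether the 3 replicates of a group come from separate animals is not in the labels, and p-values reflect the spread among these samples alone. In sorted bulk samples fewer cells of a type and less RNA per cell cannot be told apart.

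The 2 populations differed in 5207 of 19938 genes (26.1%) at an adjusted p under 0.05 (limma, Benjamini-Hochberg), the call used throughout. Of these, 2581 genes (12.9%) were higher in lymph node cDC1 and 2626 (13.2%) were lower. Changes of at least 2-fold were found in 1095 genes (5.49%) that were higher and 1221 (6.12%) that were lower, and changes of at least 8-fold in 93 and 116. The 3 values of one tissue did not overlap the 3 of the other in 7240 genes (36.3%). Of the 12314 genes above background in either tissue, 19.4% were called higher and 20.6% lower. The counts given below for gene lists are to be read beside these shares and those over all genes. Over all genes the median difference, lymph node minus spleen, was 0.027 on the log2 scale, with a median standard error (SE) of 0.138. In 117 of the 1095 higher genes the spleen was at background, and in 134 of the 1221 lower genes the lymph node was. Without the replicate 3 arrays of all groups, 2865 genes were called; without the replicate 1 arrays, 6906 were.

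**Figure D1:**
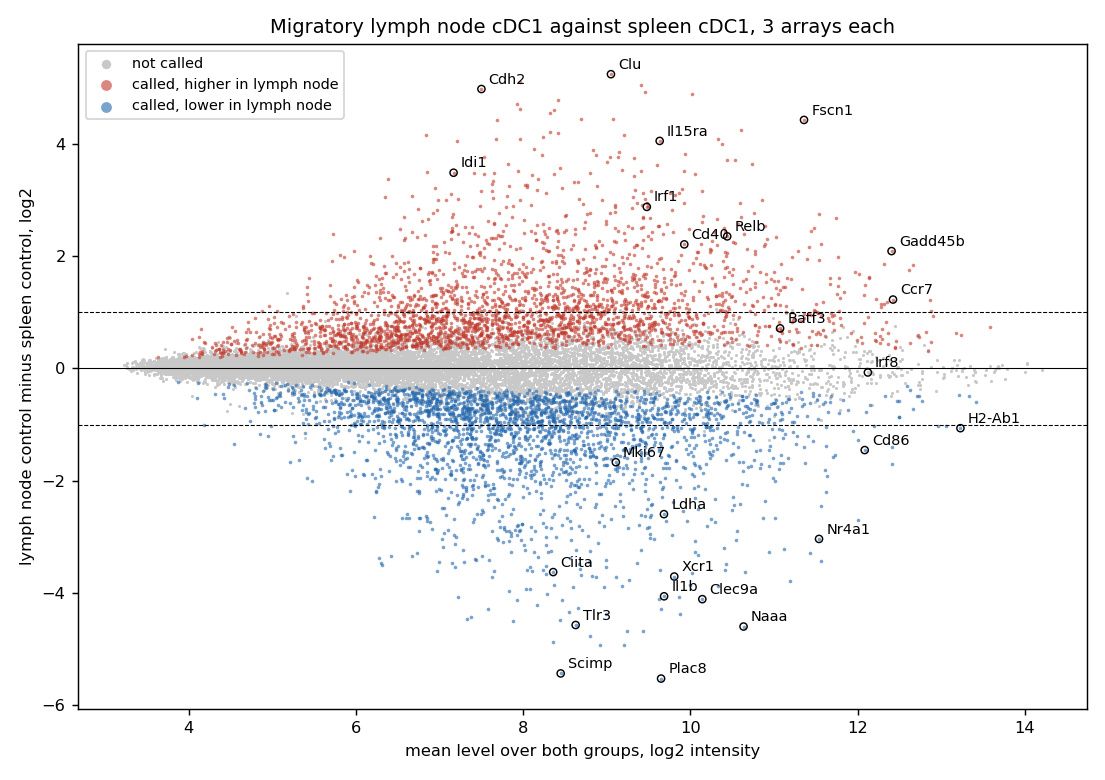
Each point is 1 of 19938 genes, with its mean level over the 6 control arrays (log2 intensity) on the x axis and the difference lymph node minus spleen (log2) on the y axis; red and blue points are called at an adjusted p under 0.05, dashed lines mark 2-fold. Clu and Plac8 lie at the ends of the range, at 5.24 and -5.52, while Irf8 lies near 0.

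The largest rise was that of Clu, which encodes the secreted chaperone clusterin. Its intensity was 2735, 3922 and 3211 on the lymph node arrays, for replicates 1, 2 and 3 in this order, and 116, 71.5 and 77.2 on the spleen arrays. The difference was 5.24 ± 0.23 (SE) on the log2 scale, or 37.7-fold (adjusted p = 3.3e-09, limma). The groups lay far apart on every array. Several of the other genes with a large rise encode proteins of the cell surface and of contacts between cells. Cdh2, N-cadherin, was at 859, 1089.5 and 1116 in lymph node and at 35.5, 30.2 and 31.5 in spleen, where it was at background, so that it was at least 18-fold higher (adjusted p = 1.2e-10, limma). F11r, the junctional adhesion molecule JAM-A, was at 994, 2104 and 2740.4 against 68.8, 57.7 and 70.1. Sema6d, a transmembrane semaphorin, was at 2657, 4821 and 4636 against 86.7, 139 and 137. For both, the replicate 1 array was the lowest of the 3 in lymph node, though still far above every spleen array.

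Fscn1, the actin-bundling protein fascin of mature dendritic cells, was the brightest of these 15 genes, at 8945, 14148 and 14213 in lymph node against 498, 679 and 539 in spleen, a difference of 4.42 ± 0.29 (SE). H2-M2, a non-classical MHC class I gene, was at 5329.7, 5629.9 and 5965 against 269, 128 and 205. Mfge8, a secreted protein that bridges phosphatidylserine on dying cells to integrins, was at 1512, 1777 and 1609.8 against 81.6, 72.7 and 51.2. S100a4, a calcium-binding protein of motile cells, was at 4167, 3069.9 and 4564 against 236, 92.5 and 96.1, and here the replicate 1 array was the highest in spleen. The 15 also held Pygl, the glycogen phosphorylase first found in liver, which was at least 21.9-fold higher, and Adm, the vasoactive peptide adrenomedullin, at least 16.9-fold higher. Elobl was at least 25.9-fold higher, Mtss2 at least 21.8-fold, Insl6 23.2-fold, Tmem150c 21.8-fold and the transporter Slco5a1 21.6-fold. The differences of the 15 genes ran from 4.42 to 5.24 on the log2 scale.

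The largest fall was that of Plac8, a small cysteine-rich protein. Its intensity was 119, 141 and 98.5 in lymph node against 6636, 4861 and 4999.5 in spleen, a difference of -5.52 ± 0.27 (SE) or 46-fold (adjusted p = 6.6e-09, limma). Scimp, a transmembrane adaptor of antigen-presenting cells, was at 69.5, 57 and 38 against 2649, 2091 and 2179.6, at least 40.8-fold lower. Lymph node was dim for both genes on all 3 arrays. Havcr2 encodes TIM-3, a receptor for phosphatidylserine and HMGB1 that marks cDC1 among other cells, and was at 96.4, 123 and 103 against 2390.2, 3793 and 3804, 30.4-fold lower. Treml4, a receptor of splenic dendritic cells that binds dead cells, was at 119.8, 138 and 157 against 2533, 3831 and 4374. Tlr3, the sensor of double-stranded RNA that cDC1 carry in endosomes, was at 75, 82.5 and 86.5 against 1705, 1710.5 and 2451, a difference of -4.57 ± 0.22 (SE). Dcstamp, a multi-spanning membrane protein needed for the fusion of osteoclasts, was 29.3-fold lower and P2ry14, the receptor for UDP-glucose, 27.2-fold lower.

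Naaa, a lysosomal amidase that degrades palmitoylethanolamide, fell from 6274, 8331 and 9158 in spleen to 233, 466 and 312 in lymph node. Il1r2, the decoy receptor for interleukin 1, was at 1716, 887 and 900.1 in spleen and at background in lymph node, at least 19.7-fold lower, with the replicate 1 array the highest in spleen. Kmo, kynurenine monooxygenase, an enzyme of tryptophan breakdown, was at 513, 809 and 1035 in spleen and at background in lymph node, at least 13.4-fold lower. The other 5 of the 15 were the sodium-proton exchanger Slc9a9, the exchange factor Cyth4, the SLAM family receptor Cd244a, the serpin Serpinb8 and the receptor Gpr171. Their differences lay between -4.92 and -4.37 on the log2 scale.

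**Figure D2:**
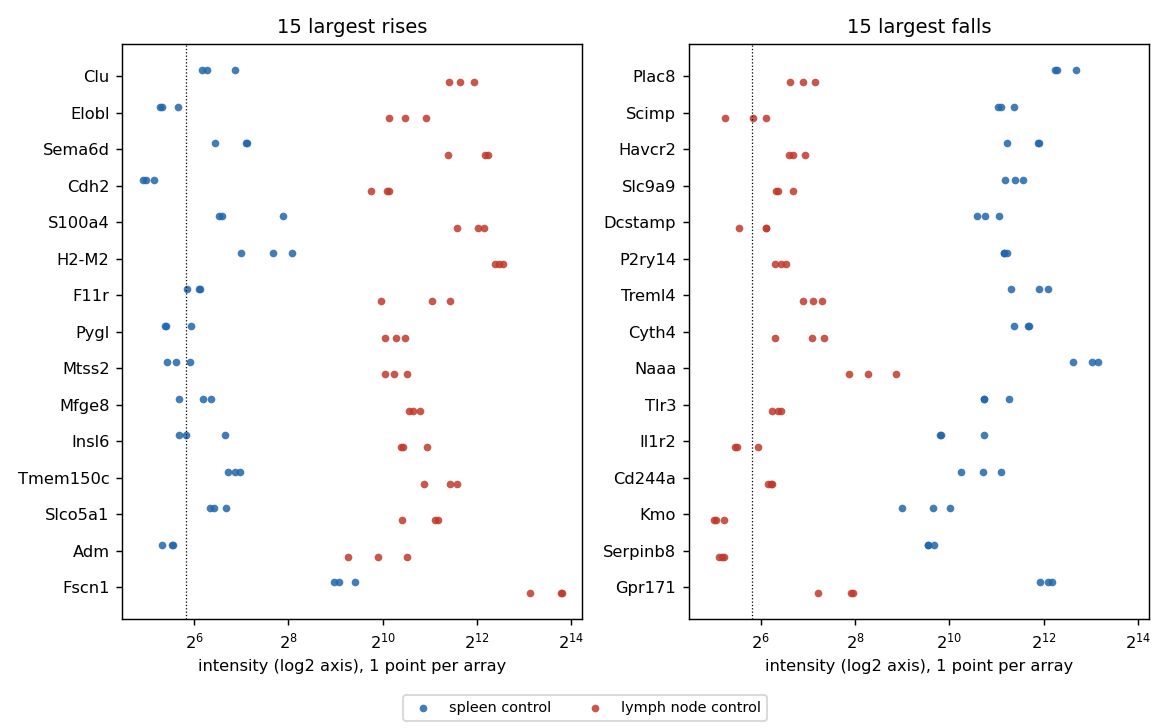
Intensity on each control array (x axis, log2 scale, 1 point per array) of the 15 genes that rose most and the 15 that fell most, red for lymph node and blue for spleen; the dotted line is the background near 56.4. The red and blue points of no gene overlap, as the choice of these genes required, and several dim groups lie at or near the background line.

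Most of the genes by which cDC1 are recognised were lower in the migratory cells. Of 31 measured genes of the cDC1 identity list, 24 were called lower and 3 higher, against 13.2% and 12.9% of all genes, and the median difference was -2.66. The count of higher members was 5 with the replicate number as a block and 0 without the replicate 3 arrays. Xcr1, the chemokine receptor used to sort both populations, was at 203, 286 and 263 in lymph node against 2827, 3508 and 3417 in spleen, 13-fold lower (difference -3.71 ± 0.22 (SE), adjusted p = 2.5e-08, limma). It thus stayed above background in both, and both gates were set on XCR1 protein. Clec9a, the receptor for actin filaments of dead cells, was at 236, 378 and 226 against 3911, 4935 and 5363. Wdfy4, a protein needed for cross-presentation, was at 579.7, 876 and 489 against 7429, 9455 and 9180.4. Rab7b, a GTPase of late endosomes, and the scavenger receptor Cd36 were 19.5-fold and 19.2-fold lower.

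Surface markers that separate resident from skin-derived cDC1 were both lower in lymph node. Cd8a, a marker of resident cDC1, was at 232, 365 and 267 against 1146, 2114 and 2178. Itgae, which encodes CD103, the integrin used to mark migratory cDC1, was at 94.1, 101 and 79.1 against 549, 539 and 1049.7, and Cd207, langerin, at 139.7, 174 and 153 against 528, 245 and 466. Neither of these 2 overlapped between the groups, as for 36.3% of all genes, and both were higher in spleen. The difference of Cd207, at -1.34 ± 0.29 (SE), was not called without the replicate 3 arrays, at -1.20. Itgax, which encodes CD11c, was 6.34-fold lower; CD11c was part of both gates, so this is no finding.

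Irf8, Batf3, Id2 and Zbtb46, transcription factors on which the lineage rests or by which it is known, were not among the genes that fell. Irf8 was at 4184, 4671 and 4206 in lymph node against 3611, 5012 and 5289 in spleen, and these values overlapped (difference -0.073 ± 0.17 (SE), adjusted p = 0.85, limma). Batf3 was at 3020.1, 2554 and 2716 against 1804, 1423 and 1856 and Id2 at 3554, 3894 and 3676 against 3062, 2003 and 2141, differences of 0.71 ± 0.14 (SE) and 0.65 ± 0.17 (SE), both called higher. Neither was called without the replicate 3 arrays, at differences of 0.79 and 0.59. Id2 was also not called without the replicate 2 or the replicate 3 array of spleen alone. Zbtb46, a factor shared by conventional dendritic cells, had a difference of 0.44 ± 0.16 (SE) and Flt3, the growth factor receptor of the lineage, one of 0.55 ± 0.29 (SE). These 2 were not called (adjusted p = 0.0591 and 0.21, limma) but were called higher with the replicate number as a block (adjusted p = 0.0144 and 3.1e-05), and Zbtb46 also without the replicate 1 array of lymph node. Ly75, the endocytic receptor DEC-205, was the third member called higher, at 1423, 2445 and 2382 against 735, 1111 and 1135, a difference of 1.05 ± 0.27 (SE). It was not called without the replicate 3 arrays, at 1.05.

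The list of genes known from the maturation of migratory dendritic cells moved the other way. Of its 52 measured members, 47 were called higher and 3 lower, with a median difference of 1.85. This list was put together from published work on such cells and with results of these arrays known. Ccr7, the receptor that guides dendritic cells into lymph vessels and to the T cell zone, was at 7339, 9556 and 8445 in lymph node against 3483, 3629.8 and 3668 in spleen. The rise was 2.34-fold (difference 1.22 ± 0.15 (SE), adjusted p = 3.1e-05, limma), from a level that was well above background in spleen too. Cd40, by which helper T cells act on dendritic cells, was at 2138, 2777 and 1542 against 572, 525 and 309, 4.62-fold higher. It was highest on the replicate 2 array in lymph node and lowest on the replicate 3 array of both tissues. Socs2, an inhibitor of cytokine signalling, was 16.9-fold higher and the phospholipid-binding protein Anxa3 18.9-fold.

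Cd80 and Cd86, the B7 molecules that bind CD28 on T cells, are maturation markers, yet were lower in lymph node. Cd86 was at 3268, 2547 and 2171 against 7386, 7360.4 and 6844 and Cd80 at 1221, 1538 and 1304 against 3107, 3373 and 2924, differences of -1.45 ± 0.15 (SE) and -1.22 ± 0.14 (SE) (adjusted p = 3.9e-06 and 1.3e-05, limma). Neither gene overlapped between the groups, as for 36.3% of all genes. The other member called lower was Ramp3, a partner of the receptor for adrenomedullin. Cd83 and Il12b were not called, with differences of -0.30 ± 0.18 (SE) and 0.76 ± 0.27 (SE); Il12b, the p40 subunit of interleukin 12, was called higher with the replicate block (adjusted p = 2e-05, limma) and without the replicate 1 array of lymph node. Its intensity was high in both tissues, at 5518, 7846 and 8776 and 3145, 5067 and 4892.

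**Figure D3:**
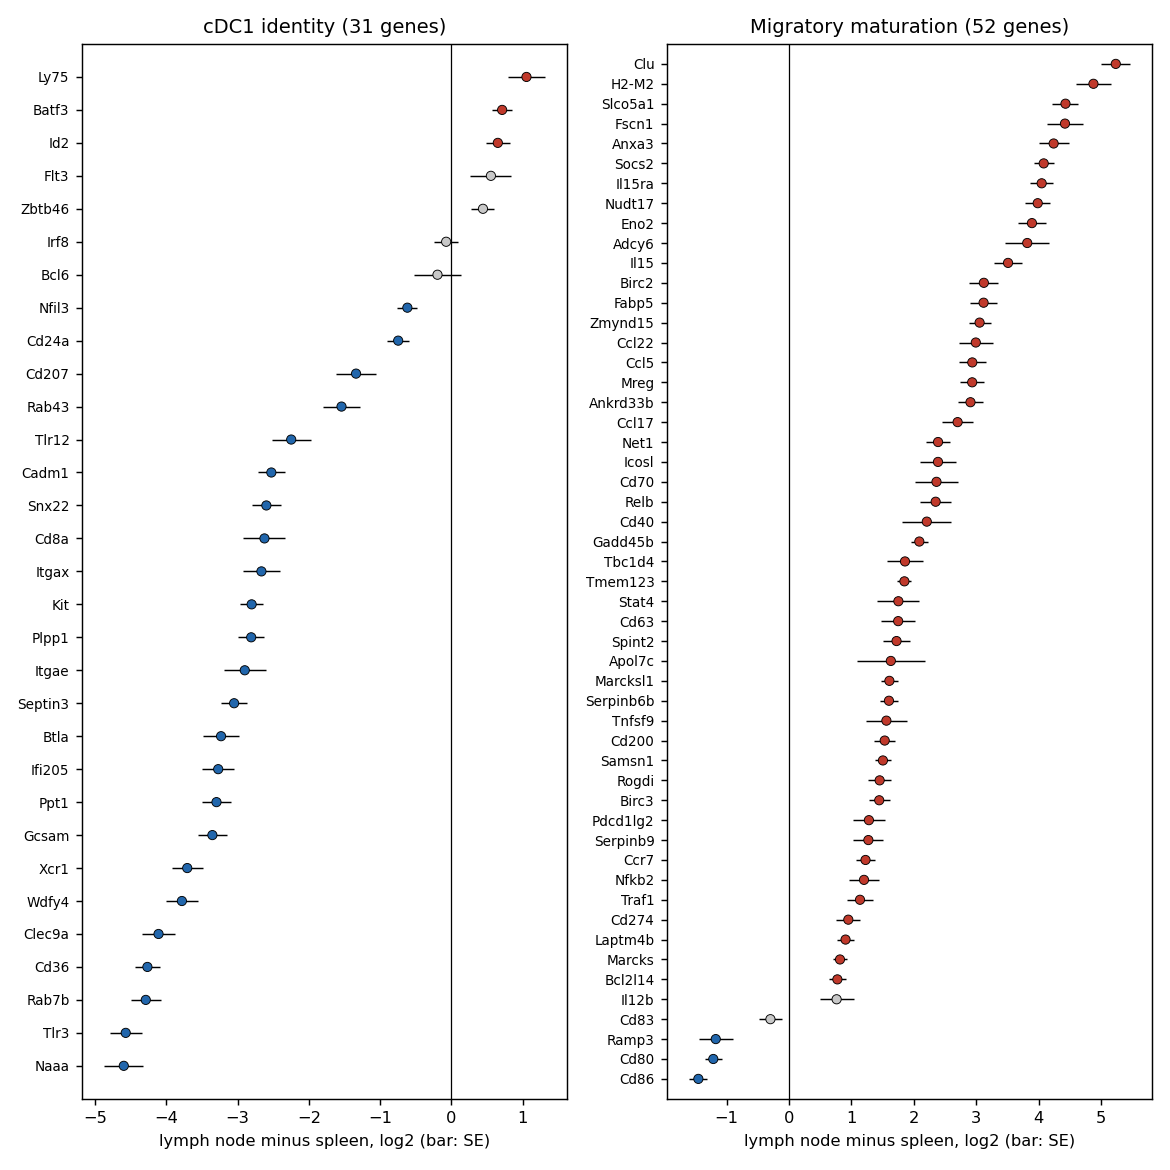
Difference lymph node minus spleen (log2, x axis, bars are the SE of the fit) of each measured gene of the cDC1 identity list (31 genes) and the Migratory maturation list (52 genes), red for genes called higher, blue for lower and grey for not called. Most identity genes lie to the left of 0 and most maturation genes to the right, with Cd86, Cd80 and Ramp3 as the maturation genes called lower.

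Among 32 measured receptors for chemokines and migration-guiding lipids, 7 (21.9%) were called higher and 7 (21.9%) lower, and 15 were at background in both tissues. Without the replicate 1 array of lymph node or the replicate 3 array of spleen, 4 were higher. Genes above background in either tissue had shares near these, 19.4% higher and 20.6% lower, and all genes 12.9% and 13.2%. S1pr1, the sphingosine 1-phosphate receptor that allows exit into lymph, rose most, from 166, 124 and 131 to 529, 565 and 529.6. Ccrl2, which presents chemerin, and Ptger4, a receptor for prostaglandin E2, were 2.36-fold and 2.02-fold higher, the latter not called without the replicate 3 arrays. Cxcr3, the receptor for Cxcl9 and Cxcl10, fell from 1011, 836 and 1020.4 to 138, 119 and 103. Ccr9 was at 279, 263 and 277 in spleen and at background in lymph node, at least 4.85-fold lower. Gpr183, the oxysterol receptor EBI2 that positions dendritic cells in the spleen, was 3.34-fold lower, Ccr2 at least 2.20-fold lower and Cxcr4 1.83-fold lower.

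Of 29 measured chemokines, 9 (31.0%) were called higher and 6 (20.7%) lower, against 19.4% and 20.6% of genes above background in either tissue. Ligands of CCR4 and CCR7 were among the former and ligands of CXCR3 among the latter. Ccl22, a ligand of CCR4, was at 4539, 5591 and 5667 in lymph node against 892, 573 and 558 in spleen, and Ccl17, the other ligand of CCR4, at 854, 517 and 479 against 83.9, 110.3 and 83.1. Ccl5, a chemokine that attracts T cells, was 7.65-fold, Cx3cl1 5.96-fold and Cxcl16, the ligand of CXCR6, 2.27-fold higher. Ccl19, a ligand of CCR7, was 5.34-fold higher; it is also made by stromal cells and several probe sets carry its name. Ccl3 fell from 1757, 594 and 959 to 119.8, 132 and 72.1 and Cxcl9 from 4075, 4341 and 3918 to 864, 544 and 355. Ccl4 and Cxcl10 were 3.87-fold and 3.54-fold lower. The groups did not overlap for any of the chemokines named here, as for 36.3% of all genes. These chemokines were chosen for large differences or after their values were seen, so this was likely from the choice.

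Cytokine genes included some of the larger changes in both directions, with 9 of 32 (28.1%) called higher and 7 (21.9%) lower, or 4 lower without the replicate 3 arrays. Genes above background in either tissue were called higher in 19.4% and lower in 20.6% of cases, and all genes in 12.9% and 13.2%. Il15, a cytokine that sustains CD8 T and NK cells, was at 3741, 3199.9 and 2914 in lymph node against 391, 205 and 295 in spleen, 11.4-fold higher. Il15ra, which presents it in trans, was at 2719, 3656 and 3387 against 233, 177 and 179.8, 16.6-fold higher. Csf1, the growth factor of macrophages, was at 1178, 989.8 and 428 against 57.5, 67 and 67.2; the 3 lymph node arrays differed among themselves more than for most genes named here. Flt3l and Il27 were 3.03-fold and 1.89-fold higher. Il1b fell from 3112, 3209 and 3797 to 189, 237 and 183, 16.7-fold, and Tgfb1 from 1555, 1432 and 1409 to 268, 207 and 236, 6.21-fold. Il18 was 3.61-fold lower. Tnf was not called, at 644, 729 and 850.0 against 568, 636 and 820.2.

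Of 37 receptors for cytokines and growth factors, 14 (37.8%) were called higher and 9 (24.3%) lower, against 19.4% and 20.6% of genes above background in either tissue. Besides Il15ra, the largest rises were of Tnfrsf4, OX40, from 644, 450.3 and 385 to 6247, 5176 and 6769, and of Il7r, from 73.9, 100.5 and 138 to 772, 1247 and 1752. Il21r and Tnfrsf9, 4-1BB, were 8.94-fold and 8.13-fold higher. Ifngr1, the ligand-binding chain of the interferon gamma receptor, fell from 2987, 5627 and 5878 to 341, 507 and 403, 11.2-fold, with the replicate 1 array the lowest in both tissues.

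The list of costimulatory and coinhibitory ligands was divided evenly: of 29 measured genes, 10 (34.5%) were called higher and 10 (34.5%) lower. Among genes above background in either tissue these shares were 19.4% and 20.6%. The list also holds receptors, among them Cd40, Havcr2, Lag3 and Cd200r1, so its counts are not of ligands alone. Icosl, the ligand of ICOS, was at 1373, 2263 and 2064 in lymph node against 263, 354 and 481 in spleen. Cd70, the ligand of CD27, was at 901, 453 and 285 against 129.6, 75.7 and 87.3 and Pvr, the ligand of TIGIT and CD226, at 1646, 2331 and 2637 against 534, 735 and 625. Icam1, the ligand of LFA-1, was 2.96-fold higher. Ligands of inhibitory receptors were found in both directions. Cd200 was 2.89-fold, Pdcd1lg2 (PD-L2) 2.43-fold and Cd274 (PD-L1) 1.93-fold higher, while Lgals9, the TIM-3 ligand galectin-9, was 2.15-fold lower. The members called lower were led by Havcr2, with Cd86 and Cd80, described above, among them, and numbered 6 without the replicate 3 arrays.

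Genes of the NF-kB pathway, which carries signals from CD40 and other receptors of the TNF family, were higher without exception among those called: 17 of 26 rose and 0 fell, with a median difference of 1.16. Relb, the transcription factor of the noncanonical branch, was at 2362, 3379.8 and 3865 in lymph node against 536, 647 and 672 in spleen, a difference of 2.35 ± 0.24 (SE). Its partner Nfkb2 was at 2178, 2987 and 3009 against 871, 1389 and 1332. Birc2, the ubiquitin ligase cIAP1, was 8.70-fold higher and Birc3, cIAP2, 2.72-fold. The kinase gene Ikbkb was 3.15-fold higher. Inhibitors that NF-kB itself induces were among those that rose: Nfkbia, which encodes IkBa, from 2774, 2566 and 2463 to 7050.1, 7851 and 7034, Tnfaip3, A20, 2.67-fold, and Tnip1 3.95-fold. The adaptors Traf5 and Tank were 3.63-fold and 3.50-fold higher. Rel, with a difference of -0.076 ± 0.17 (SE), and Map3k14, the kinase NIK, with one of 0.37 ± 0.24 (SE), were not called.

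Promoters were searched for 11 motifs in the 250 bases before each gene's start, on both strands, in RefSeq windows of build GRCm38.p6 that matched 15614 of the genes tested. The kappaB motif, GGGANNTTCC, was in 1.12% of all these promoters, in 1.73% of those of genes called at least 2-fold higher and in 1.01% of those at least 2-fold lower. In the NF-kB list it was in 2 of 22 and among chemokines in 5 of 20. The windows below, chosen after the matches were seen, show the motif in capitals with its flanks, in 3 genes that were higher and in 1, Cxcl10, that was lower. A match is a description of the sequence only.
Nfkbia: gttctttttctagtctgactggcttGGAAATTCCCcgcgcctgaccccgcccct
Csf1: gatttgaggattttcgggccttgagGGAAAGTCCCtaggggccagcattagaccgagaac
Gbp5: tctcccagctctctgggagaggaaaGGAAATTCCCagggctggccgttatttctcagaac
Cxcl10: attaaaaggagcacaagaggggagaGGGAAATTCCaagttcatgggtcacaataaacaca
The Nfkbia window is chr12:55492648-55492701 on the minus strand, 29 bases from the motif's first base to the gene's start. The Csf1 window is chr3:107760589-107760648 on the minus strand, 154 bases from the motif's first base to the gene's start. The Gbp5 window is chr3:142496832-142496891 on the plus strand, 77 bases from the motif's first base to the gene's start. The Cxcl10 window is chr5:92349014-92349073 on the minus strand, 159 bases from the motif's first base to the gene's start.

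MHC class II genes were mostly lower in the migratory cells, 10 of 18 against 5 higher, with a median difference of -0.49. Both gates took cells with high MHC class II protein. Ciita, the master regulator of these genes, fell from 639, 1358 and 1769 in spleen to 81.6, 103 and 97 in lymph node, 12.4-fold (difference -3.63 ± 0.36 (SE), adjusted p = 3.4e-06, limma). The structural genes moved far less. H2-Ab1 was at 6409, 7322 and 6243 against 13406, 14198 and 14098, 2.09-fold lower, Cd74, the invariant chain, 1.41-fold lower and H2-Eb1 1.51-fold lower, the last not called without the replicate 3 arrays. H2-Aa, at a difference of -0.25 ± 0.092 (SE), was not called (adjusted p = 0.0681, limma) but was called lower with the replicate block (adjusted p = 0.00185). Their intensities were near the top of the range of these arrays. The peptide-editing chains fell more, H2-DMa from 7321, 6685 and 7160.4 to 1674, 1109 and 1147 and its inhibitor H2-Ob from 3584, 3604 and 3751 to 343, 281 and 262; H2-Oa was 5.31-fold lower. Lgmn, the protease legumain, and H2-Eb2 were 2.96-fold and 3.55-fold higher.

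MHC class I and peptide loading genes leaned higher, 12 of 21 against 4 lower, with a median difference of 0.53. The higher members numbered 7 without the replicate 2 array of spleen and 6 without the replicate 3 arrays. Tapbpl, the peptide editor TAPBPR, rose from 645, 713 and 708 to 2448, 2828 and 2966, 3.98-fold. B2m, the light chain, was at 11976, 12149.7 and 11609 against 8589.8, 7268 and 7785, 1.51-fold higher, and Psme2, a proteasome activator, 2.03-fold higher. H2-Q4 was 3.69-fold higher; class I genes are near-identical in parts, so its signal may hold that of its neighbours. Tap1, one chain of the peptide transporter, was 1.45-fold higher close to the threshold (adjusted p = 0.0475, limma). It was not called when any control array other than the replicate 1 array of lymph node was left out. Without the replicate 3 arrays it was also not called, at a difference of 0.50. Tap2 and Tapbp were not called but were called higher with the replicate block (adjusted p = 0.0371 and 1.5e-07, limma), and Tapbp also without the replicate 1 array of lymph node. Nlrc5, the regulator of class I genes, was at 4736, 8531 and 9326 against 2430.4, 3918 and 4156 (adjusted p = 0.0304, limma). It was not called without the replicate 2 or 3 array of lymph node or the replicate 1 array of spleen. Nor was it called without the replicate 3 arrays, at a difference of 1.04, or with median centring, at 1.07. Cd1d1, which presents lipids to NKT cells, was 3.0-fold lower.

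Genes for the uptake of antigen and for cross-presentation moved in both directions, 7 of 38 (18.4%) higher and 12 (31.6%) lower. Genes above background in either tissue were called higher in 19.4% and lower in 20.6% of cases, and all genes in 12.9% and 13.2%. Besides Havcr2, Cd36, Clec9a and Wdfy4, the scavenger receptor Scarb1 fell from 1261, 1439 and 1446 to 149, 154 and 132. Mfge8 was the largest rise. Of 20 lysosomal genes, 8 (40%) were higher, with Lamp1 3.76-fold and the inhibitor Cstb 3.19-fold. The 3 (15%) that were lower were the proteases Ctse 2.91-fold, Ctsa 2.75-fold and Ctsc 2.56-fold. The higher ones numbered 5 without the replicate 3 array of lymph node.

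Of 36 genes that sense microbial products or carry the signal, 14 were called lower and 4 higher. Nlrp3, the inflammasome sensor, was at 690.3, 584 and 569 in spleen and at background in lymph node, at least 10.9-fold lower. Cd14, the co-receptor for lipopolysaccharide, fell from 2262, 892 and 999.8 to 103, 84.5 and 75.3, with the replicate 1 array the highest in spleen. Cd180, which encodes RP105, fell from 1758, 2132 and 2135 to 127, 181 and 154. Tlr12, the profilin receptor of cDC1, was 4.75-fold lower. Myd88, the adaptor that most Toll-like receptors share, and Unc93b1, which brings them to endosomes, were 2.80-fold and 2.59-fold lower. Irak3, an inhibitor of this signalling, rose 4.67-fold. Tlr9 and Tlr2, at differences of -0.091 ± 0.15 (SE) and 0.14 ± 0.14 (SE), were not called.

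Transcription factors of the dendritic and lymphoid lineages were divided, 16 of 40 higher and 12 lower, or 9 and 7 without the replicate 3 arrays. Mycl, which supports the proliferation and function of cDC1, fell from 499, 1068 and 1203 to 107, 158 and 103. Bcl11a was 4.99-fold, Runx3 3.42-fold and Ikzf1 3.06-fold lower. Prdm1, which encodes Blimp-1, was at 95.1, 139.9 and 208 in lymph node and at background in spleen, at least 2.49-fold higher. Of 22 genes of the IRF, STAT and SOCS families, 9 were higher and 2 lower; 3 were higher without the replicate 3 arrays and 5 lower with the replicate block. Irf1 rose from 251, 272 and 268 to 1509.5, 2136 and 2236, 7.33-fold, and Stat5a 2.40-fold. Stat4, at 529.5, 755 and 1367 against 331, 262 and 165, and Irf4, at 225, 406 and 487 against 148, 139.6 and 175, were higher but not called without the replicate 3 arrays. Irf7, a factor that interferon induces, fell from 873, 874 and 996 to 216, 278 and 350.2.

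Of 35 measured interferon-stimulated genes, 17 were called higher and 4 lower, and the median difference was 0.25. Without the replicate 3 arrays, 10 were higher. Gbp5, a GTPase of host defence, rose from 179, 212 and 197 to 1712, 2261 and 2421, 10.8-fold. Ifit1, which binds foreign RNA ends, was at 207, 149 and 171 in lymph node and at background in spleen, at least 3.09-fold higher. Herc6 and Usp18 were 4.48-fold and 4.42-fold higher, and Rsad2, viperin, was at 446, 541 and 473 against 154, 136 and 115. In contrast, Ifi205, a member of the DNA-binding HIN200 family that is also in the cDC1 identity list, fell from 3247, 3264 and 3432 to 287, 479 and 295. Trim30a was 2.43-fold lower. The interferon-stimulated response element (ISRE), searched as GAAANNGAAA, was in 14 of 26 promoters of this list and in 2.93% of all. Genes called at least 2-fold higher held it in 3.0% of promoters and those at least 2-fold lower in 4.02%. The windows below, chosen after the matches were seen, show 1 match each in capitals, in 2 genes that were higher and 2 that were lower. The Ifit1 window holds a second match in small letters, 85 bases from its first base to the gene's start.
Ifit1: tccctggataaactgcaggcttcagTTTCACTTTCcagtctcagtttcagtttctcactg
Rsad2: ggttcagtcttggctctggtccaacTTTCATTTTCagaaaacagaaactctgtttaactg
Ifi205: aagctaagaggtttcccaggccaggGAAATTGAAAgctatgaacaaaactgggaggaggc
Trim30a: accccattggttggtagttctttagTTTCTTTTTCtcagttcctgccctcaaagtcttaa
The Ifit1 window is chr19:34640760-34640819 on the plus strand, 104 bases from the motif's first base to the gene's start. The Rsad2 window is chr12:26456538-26456597 on the minus strand, 120 bases from the motif's first base to the gene's start. The Ifi205 window is chr1:174031855-174031914 on the minus strand, 134 bases from the motif's first base to the gene's start. The Trim30a window is chr7:104465195-104465254 on the minus strand, 36 bases from the motif's first base to the gene's start.

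Genes linked to tolerance, which homeostatic migration is thought to serve, were called in both directions, 5 of 28 (17.9%) higher and 6 (21.4%) lower, against 12.9% and 13.2% of all genes. Of the 28, 23 were above background in either tissue. Among all genes above background in either tissue the shares were close to these, 19.4% higher and 20.6% lower. Itgb8, the integrin chain that releases active TGF-beta, rose from 68.3, 51.1 and 63.7 to 945, 1380.1 and 821, 16.9-fold (adjusted p = 2e-08, limma). Arg2, the mitochondrial arginase, was at least 6.60-fold higher. The genes of TGF-beta itself and of one of its receptor chains were lower, Tgfb1 as given above and Tgfbr2 2.61-fold, and Lrrc32, GARP, which holds latent TGF-beta at the surface, was 3.45-fold lower. Ido1 and Aldh1a2, the enzymes of kynurenine and of retinoic acid synthesis, were not called, at 37.4, 53.4 and 66.6 against 62.4, 61.5 and 81.6 and 69.3, 99.4 and 108 against 84.5, 77.6 and 81.1, near background. Ido1 was called lower without the replicate 3 array of lymph node, and Aldh1a2 higher without the replicate 1 array of lymph node.

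Among genes of the actin skeleton, 12 of 42 (28.6%) were higher and 15 (35.7%) lower, against 19.4% and 20.6% of genes above background in either tissue. Next to Fscn1, Swap70 rose 4.39-fold and Vim, vimentin, from 5742, 4679 and 4434 to 11027, 11102 and 12053. Rac2, a GTPase of blood cells, fell from 2179.6, 2471 and 2446 to 469, 584 and 401, and Coro1a, coronin 1A, 3.45-fold. Plek, Evl and Cotl1 were 3.76-fold, 3.76-fold and 3.63-fold lower. Adhesion genes gave 16 (38.1%) higher and 15 (35.7%) lower of 42. Both chains of LFA-1 were lower: Itgb2 fell from 1498, 1895 and 1848 to 139.6, 186 and 128 and Itgal from 733, 1092 and 1166 to 82.9, 117 and 109.8. Itgb5 rose 5.40-fold, beside the rises of Cdh2, F11r and Itgb8, and Itga8 was at least 7.06-fold lower.

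Of 28 genes of survival and apoptosis, 11 (39.3%) were higher and 5 (17.9%) lower, against 19.4% and 20.6% of genes above background in either tissue. Fas, the death receptor, rose from 154, 156 and 207 to 831, 1105 and 791, and Cflar, c-FLIP, which blocks its signal, from 1028, 729.9 and 888 to 4111, 4392 and 4415. Bcl2l1, Bcl-xL, was 2.73-fold higher and Bcl2 1.83-fold lower. Casp6 was 4.13-fold lower. Without the replicate 3 arrays the counts were 7 and 3.

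Genes of cell division were lower in the migratory cells: 34 of 44 were called lower and 1 higher, with a median difference of -1.21. Mki67, the proliferation marker Ki-67, was at 309, 312 and 308 in lymph node against 918, 1074 and 969.7 in spleen, 3.18-fold lower (adjusted p = 1e-05, limma). Ccnb2, a cyclin of mitosis, fell from 654, 581 and 590.2 to 80.8, 89.8 and 74.2 and Stmn1, stathmin, from 2639.6, 2437 and 2302 to 380.3, 267 and 309.9. Ccna2 and Birc5, survivin, were 4.81-fold and 4.93-fold lower, and the mitotic kinase Plk1 at least 4.16-fold lower. Of the DNA replication genes, Pcna was 3.50-fold lower, and the helicase subunits Mcm5, Mcm6 and Mcm7 were 2.75-fold, 3.04-fold and 2.53-fold lower. The one member called higher was Ccnd2, a cyclin of the G1 phase, at 0.83 ± 0.19 (SE), not called without the replicate 3 arrays. Ccnd1 was 2.37-fold lower. The E2F motif, searched as TTTCCCGC or TTTGGCGC, was in 4 of 34 promoters of this list against 1.93% of all promoters. It was in 2.42% of those of genes called at least 2-fold higher and 3.12% at least 2-fold lower. The 4 promoters of the list that hold it, on one strand or the other, are shown with it in capitals. The 3 Mcm genes were lower and Cdk2, a kinase of S phase entry, was not called, at a difference of -0.076 ± 0.24 (SE); the Mcm6 promoter has a second match nearer to the start.
Mcm5: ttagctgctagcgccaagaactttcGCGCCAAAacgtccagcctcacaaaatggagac
Mcm6: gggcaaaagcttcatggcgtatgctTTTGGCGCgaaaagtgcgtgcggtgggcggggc
Mcm7: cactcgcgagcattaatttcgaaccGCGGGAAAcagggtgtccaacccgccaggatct
Cdk2: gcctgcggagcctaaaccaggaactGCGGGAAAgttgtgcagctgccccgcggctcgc
The Mcm5 window is chr8:75109335-75109392 on the plus strand, 149 bases from the motif's first base to the gene's start. The Mcm6 window is chr1:128359783-128359840 on the minus strand, 110 bases from the motif's first base to the gene's start. The Mcm7 window is chr5:138172016-138172073 on the minus strand, 165 bases from the motif's first base to the gene's start. The Cdk2 window is chr10:128705159-128705216 on the minus strand, 140 bases from the motif's first base to the gene's start.

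The other 8 motifs were read in the same windows, and the same promoter can hold several of them. The PU.1 motif, GAGGAAGT, was in 3.11% of promoters of genes at least 2-fold higher, 4.62% of those at least 2-fold lower and 2.16% of all. In the same order, the AP-1 motif TGANTCA was in 3.34%, 6.13% and 6.11% and the cyclic AMP response element (CRE) TGACGTCA in 2.31%, 2.31% and 2.12%. The interferon-gamma activated site (GAS), TTCNNNGAA, was in 5.54%, 6.53% and 6.70%. The composite ETS and IRF element (EICE) GGAANNGAAA, which shares its last letters with the ISRE, was in 2.42%, 2.71% and 2.24%. The cell cycle homology region (CHR), TTTGAA, was in 10.4%, 13.2% and 13.7% and the CCAAT box in 36.6%, 37.4% and 35.5%. In the Cell cycle list the CHR was in 7 and the CCAAT box in 24 of 34 promoters. The sterol element ATCACNCCAC was in 0.160% of all promoters and in 0 of 23 of the Cholesterol list.

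Immediate early genes, which are induced within minutes by signals and also by tissue digestion, were called lower in 15 of 32 cases and higher in 4. Egr2 fell from 1522, 3367 and 4103 to 169, 283 and 257 and Nr4a1, Nur77, from 6168, 9371 and 10699.8 to 618, 1598 and 1135, with the replicate 1 array the lowest of its group in spleen for both. Fosl2 and Egr3 were 5.11-fold and 4.17-fold lower. Gadd45b, a stress sensor downstream of NF-kB, rose from 2943, 2532 and 2449 to 10390.5, 11121 and 12125. Spleen and lymph nodes were both digested before the sort, and the part of digestion in these differences was not tested.

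Genes of cholesterol synthesis and transport leaned higher, 15 of 29 against 2 lower, with a median difference of 0.52. Without the replicate 3 arrays, 7 were called higher. Idi1, the isopentenyl diphosphate isomerase, was at 415, 496 and 539 in lymph node and at background in spleen, at least 8.52-fold higher. Fdft1, squalene synthase, rose from 561, 470.1 and 581 to 2917, 2587 and 3205. Hmgcs1, an early enzyme of the pathway, was 2.74-fold and Sc5d, a late one, 2.83-fold higher. Abcg1, which exports cholesterol, was 5.36-fold higher, while Apoe, the lipid carrier, was 2.67-fold lower.

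Glycolysis genes changed unequally, 5 of 26 (19.2%) higher and 11 (42.3%) lower, the latter 6 without the replicate 3 arrays. Genes above background in either tissue were called higher in 19.4% and lower in 20.6% of cases. Ldha, lactate dehydrogenase, fell from 2455, 1875 and 1795 to 318, 396 and 297. The hexokinases Hk2 and Hk3 were 3.65-fold and 4.32-fold lower and Pfkp 4.02-fold lower. Eno2, the enolase first described in neurons, rose from 139, 109.8 and 109 to 1472, 1878 and 1967, and Pfkfb3, which makes the activator of phosphofructokinase, from 957, 1297 and 1388 to 4868, 8123 and 7747. Slc2a6, a member of the glucose transporter family, was 7.52-fold higher. Of 35 oxidative phosphorylation genes 25.7% were called, near the 26.1% of all genes. They were 8 lower, led by Cycs, cytochrome c, at -1.23 ± 0.19 (SE), and 1 higher, Cox5a. Cox5a lost its call without any 1 control array but the replicate 2 array of lymph node or the replicate 1 array of spleen. It also lost its call without the replicate 3 arrays, at a difference of 0.63. With the replicate block 19 were lower and 3 higher, and without the replicate 3 arrays 2 were lower. Of 26 ribosomal protein genes 4 were called lower, 13 with the block and 0 without the replicate 3 arrays, and their median difference was -0.17. All 26 were above background, and the 4 made up 15.4%, against 20.6% called lower among genes above background in either tissue.

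**Figure D4:**
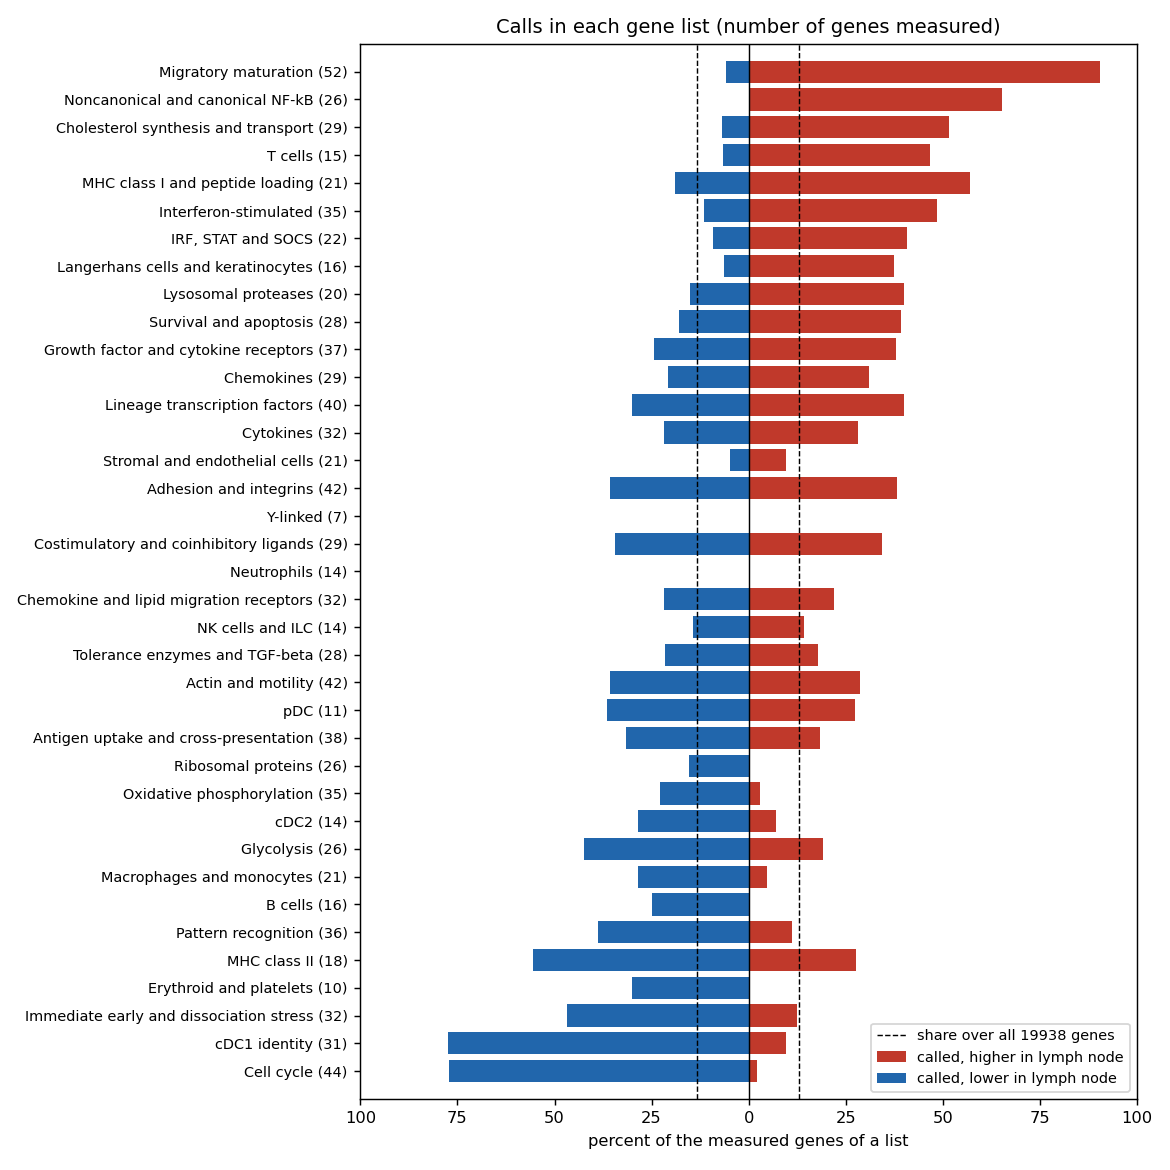
For each of the 37 gene lists, the percent of its measured genes (number in parentheses) called higher in lymph node (red, to the right) and lower (blue, to the left); dashed lines are the shares over all genes, 12.9% higher and 13.2% lower. Migratory maturation and NF-kB stand at the top and Cell cycle and cDC1 identity at the bottom, and Neutrophils and Y-linked have no call.

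Markers of other cell types were measured beside these results. Of 16 B cell genes, 4 (25%) were lower in lymph node and 0 higher, a share called near the 26.1% of all genes. The summed intensity of the list was 808 to 1035 in lymph node against 1511 to 2036 in spleen. Fcrla fell from 276, 567 and 889.9 to background, at least 9.22-fold, and Ms4a1, CD20, from 164, 125 and 207 to background, at least 2.88-fold. Cd79b was at 99.6, 79.2 and 65.5 against 117, 107 and 93.4 and was not called, but was called lower with the replicate block (adjusted p = 0.0144, limma). Of 15 T cell genes, 7 (46.7%) were higher and 1 lower, with summed intensities of 3180.3 to 3524 against 1564 to 1588, of which Il7r made up a large part. Without the replicate 3 arrays, 4 were higher. Cd3g was at 445, 241 and 176 in lymph node against 95.4, 73.4 and 68 in spleen, Cd3d at 257, 155 and 124 against 83.2, 61.9 and 66.7 and Cd3e at 196, 196 and 173 against 131, 111 and 128. Both Cd3g and Cd3d were highest on the replicate 1 array of lymph node and were not called without that array. Cd3d was also not called without the replicate 2 or the replicate 3 array of spleen. Neither gene was called without the replicate 3 arrays of all groups, at differences of 1.97 for Cd3g and 1.48 for Cd3d. The part of T and B cells in the other differences was not tested.

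Of 21 macrophage and monocyte genes, 6 were lower in lymph node and 1 higher, with summed intensities of 2304 to 2378 against 5295 to 6336. Lyz2, lysozyme, fell from 1182, 931 and 1041 to 119, 100 and 55.4, Cd68 from 995, 1425 and 1467 to 179, 231 and 312 and Hmox1 from 473, 397 and 837 to 74.6, 76 and 67. C1qa, a defining gene of macrophages, was near background in both, at 75.2, 73 and 60.7 against 70.1, 63.6 and 56.9, and Cd5l, of splenic macrophages, was at background in both. Of 14 cDC2 genes, 4 were lower and 1, Esam, higher, with sums of 1136 to 1323 against 1306 to 1662. Of 11 plasmacytoid genes, 4 were lower (1 without the replicate 3 arrays) and 3 higher, with sums of 3554 to 4219 against 2946 to 3594. Of 14 NK and innate lymphoid genes, 2 were lower, led by Klrk1 at -1.66 ± 0.18 (SE) (5 lower with the replicate block), and 2 higher, with sums of 961 to 1039 against 1153 to 1592. The share called in either direction was 28.6% in this list, near the 26.1% of all genes. It was 33.3% for macrophage and monocyte, 35.7% for cDC2 and 63.6% for plasmacytoid genes.

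Langerhans cell and keratinocyte genes were 6 higher (3 without the replicate 3 arrays) and 1 lower of 16, with sums of 1094 to 1156 against 984 to 1312. Epcam, a marker of Langerhans cells, was at 62.2, 65.7 and 110.3 in lymph node and at background in spleen, at least 1.36-fold higher, while Cd207, which they also carry, was lower. The keratins Krt5 and Krt14 were at background in both tissues. Krt14 is nonetheless 1 of the 6 called higher, at 52.4, 48.2 and 53.3 against 40, 31.7 and 32.8. It was not called without the replicate 3 arrays, at a difference of 0.50. No neutrophil gene of 14 was called, and 12 of them were at background in spleen and 12 in lymph node. Of 10 erythroid and platelet genes 3 were lower, 0 without the replicate 3 arrays and 1 without any of 4 single arrays, and of 21 stromal and endothelial genes 2, Ccl19 and Cxcl13, were higher and 1, Pecam1, lower. The summed intensities of these last 2 lists were 512 to 525 against 540.4 to 801 and 1619.7 to 2363 against 1559 to 1674. Their shares called in either direction were 30% and 14.3%, against 26.1% of all genes. That of the Langerhans cell and keratinocyte genes was 43.8%. The part of other cell types in the differences described above was not tested.

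The tissue difference was also measured on the 6 arrays labelled Cre, which are other samples. There 5648 genes (28.3%) were called between lymph node and spleen. All 2316 genes called and at least 2-fold different on the control arrays had the same sign on the arrays labelled Cre, and 2289 of them (98.8%) were called there in the same direction. The difference of Xcr1 was -3.55, that of Ccr7 1.49, that of Clu 5.48 and that of Plac8 -5.64, beside -3.71, 1.22, 5.24 and -5.52 on the control arrays. Cd40 differed by 2.41 there and by 2.21 here. In the test of the difference between these 2 tissue effects, limma called 0 of 19938 genes (0%), with 326 at an unadjusted p under 0.05. The differences furthest apart among the genes named here included Dcstamp, at -3.59 against -4.87, and Irf7, at -2.54 against -1.73, and they were not called (adjusted p = 0.9996 and 0.9996, limma).

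**Figure D5:**
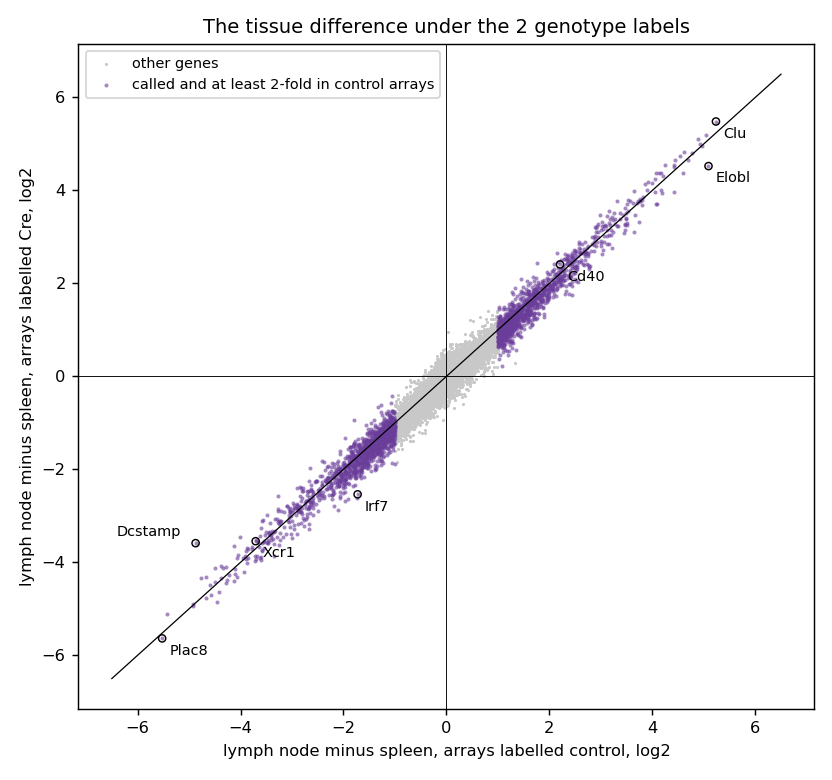
Difference lymph node minus spleen (log2) of each of 19938 genes on the arrays labelled control (x axis) and on the arrays labelled Cre (y axis); purple points are the 2316 genes called and at least 2-fold different on the control arrays, and the diagonal marks equal values. The purple points lie in the upper right and lower left, with Dcstamp and Irf7 off the diagonal.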

How the data were processed

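RNA of sorted cDC1 was measured on 12 arrays, in 4 groups of 3. The deposited values are intensities on the linear scale, 1 per probe set and array, which the authors computed by RMA; the submitters' processing notes name Affymetrix Expression Console and no version. Total RNA was amplified with the WT Pico kit, per the labels' protocols. RMA evens out the distributions of the arrays, so a shift shared by all genes would not be seen.

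Of 28853 probe sets, the platform annotation listed 23410; 21789 carried 1 symbol, 21698 of them matched to RefSeq by Entrez number, and 1621 with several symbols were not tested. For 999 genes with several probe sets the brightest was kept, which left 19938 genes. The intensities were taken to log2 and fitted with limma (version 3.58.1 under R 4.3.3) with 4 group means over the 12 arrays, a trend in the mean level and two-sided tests with Benjamini-Hochberg adjustment. The difference of tissue effects between the genotypes was tested as an interaction. The fit was checked on simulated data. A fold against a group at background is given as at least the brighter mean over the higher of the dimmer mean and the background. Tables and plots were made in Python 3.11.15 with pandas 2.3.3, numpy 2.4.6 and matplotlib 3.10.9.

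The members of the comparison and the 37 gene lists, with 971 genes of which 879 were measured, were chosen with earlier results of these data known. The text names Cd40, Xcr1, Ccr7, the 15 called genes that rose most and the 15 that fell most where the groups did not overlap and whose brighter group was above background, and up to 6 members of each list with the largest differences; markers that define a cell type and other genes named were chosen after their values were seen.

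Replicate numbers are shared between groups in the labels. Deviations from the group mean correlated at 0.309 to 0.597 between control arrays of the 2 tissues with the same number. Between those with different numbers they correlated at -0.562 to 0.439. Every same-numbered pair of the series was above 0.1, but numbers 2 and 3 were not told apart. The replicate 3 control array of spleen correlated at 0.439 with the replicate 2 and at 0.440 with the replicate 3 control array of lymph node. The replicate 1 arrays stood apart from the others, and pairing by number beyond that is not settled by these values. The reported fit has no replicate block; the blocked value is given beside a result where it changes the call. The alternatives were a replicate block, only the 6 control arrays, quantile normalization, median centring, array weights, no trend, only genes above background, the mean of probe sets and leaving out each control array; leaving out all replicate 1 or all replicate 3 arrays, and the block on the 6 arrays alone, were chosen after seeing the data. The number of arrays limits the precision.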

Additional observations from a re-analysis of the deposited data

How the results depend on the processing

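The count of genes called between lymph node and spleen control arrays, 5207 as reported, was 7178 with the replicate block, 6830 with the block on the 6 control arrays alone and 4872 on those 6 arrays without a block. It was 9020 with array weights and 2865 without all replicate 3 arrays, the 2 settings that moved it by over 1.5 times, and 6906 without all replicate 1 arrays. Leaving out each control array in turn gave 4325 to 5082 genes called, 1002 to 1237 called and at least 2-fold higher and 1161 to 1288 lower. Over the settings run, the 2-fold counts lay between 946 and 1237 for higher and 1059 and 1288 for lower genes. The interaction with the genotype labels had 0 calls in each fit that held the arrays labelled Cre but the one with array weights, where 3 genes were called: Ifi206, Jmy and Pgm2l1, with interaction terms of -0.94, -0.97 and -0.79 (log2, tissue effect on the arrays labelled Cre minus that on control arrays). The cause was not tested. Of 292 named genes no called one reversed its direction in any setting; 36 lost their call without the replicate 3 arrays, with differences 0.628 to 1.15 times those reported (median 0.927), and at most 12 in any other setting. With the block, 14 named genes gained a call and none lost one. With the highest of 7 Y-linked genes as background, 6573 genes in spleen and 5837 in lymph node were above it, against 11797 and 11946. Intensities near background carry little order.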
